A study of Homo sapiens with 6 samples.

Results

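The 10 genes described here encode the enzymes that write and remove DNA methylation, and a set of proteins that steer or read it: the methyltransferases DNMT1, DNMT3A and DNMT3B, their partner UHRF1 and its paralog UHRF2, the oxidases TET1, TET2 and TET3, the glycosylase TDG, and the reader MBD2. They were taken by name from the gene table, in which all 10 are listed among 15897 genes. RNA-seq was performed on 6 libraries labelled as H1650, a cell line established from a human lung adenocarcinoma. The 3 control libraries carry the genotype label wild type and the 3 others the label shSETD2, for short hairpin RNA against the histone methyltransferase SETD2. The study made its depleted cells with several hairpin constructs, and the labels do not say whether the library numbers stand for constructs, cultures or repeat preparations, nor which vector the control cells received. P-values therefore measure only the spread between these libraries, which may be technical.

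DNA methylation is placed on cytosines that precede a guanine (CpG). DNMT3A and DNMT3B set it anew, and their PWWP domains bind histone H3 methylated at lysine 36, the mark that SETD2 writes in its trimethylated form. DNMT1 copies the pattern onto the new strand after replication, with UHRF1 recognising the half-methylated site. TET enzymes oxidise the methyl group, TDG cuts out the most oxidised forms for repair, and MBD2 binds methylated CpG and brings in the NuRD deacetylase complex.

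SETD2 itself was measured at 18.0, 10.2 and 17.6 FPKM (fragments per kilobase of gene, scaled to the mapped fragments of the library) in the control libraries, against 8.97, 8.09 and 12.2 FPKM in those labelled shSETD2. The groups overlapped, since control replicate 2 lay below shSETD2 replicate 3, and the difference did not pass the test (adjusted p = 0.0641, limma). The paper reports lower SETD2 in depleted H1650 cells by qPCR and western blot, and a similar knockdown by each of its hairpin constructs. It does not say which of those cells gave these libraries. The groups stood far apart across all genes, with correlations of log2(FPKM + 1) of 0.982 to 0.990 within a group and 0.701 to 0.707 between groups. Of 8 markers of lung epithelium, 2 were listed, with a summed level of 3.25 to 4.77 FPKM in the control libraries and 0.384 to 0.529 in the shSETD2 libraries, where NKX2-1 was listed at 0. For 7 of 8 general epithelial markers, the sums were 14.1 to 16.02 and 402.1 to 454.5 FPKM. That rise was carried by KRT7, KRT8 and KRT18, while CDH1 fell from a mean of 1.27 to 0.0120 FPKM and EPCAM, too low to be tested, read 0.710 and 0.220. For 9 of 10 markers of embryonic kidney lines, they were 150.5 to 154.6 and 54.7 to 63.2 FPKM, with LIN28B, NEFL, NEFM and INA listed at 0 in all shSETD2 libraries and PAX8 moving from 0.0172 to 30.8. Of 6 pluripotency markers, 2 were listed, with sums of 2.08 to 2.32 and 3.21 to 3.96 FPKM, made up in the controls of UTF1 alone and in the shSETD2 libraries of POU5F1 alone, each listed at 0 in the other group. The sums were, for 3 of 5 fibroblast markers, 3.31 to 3.74 and 0.266 to 0.340 FPKM, and for 2 of 5 blood markers, 1.33 to 1.62 and 1.91 to 2.24. With SETD2 overlapping between the groups and these markers so far apart, whether the groups differ only by the hairpin, or also in the identity of their cells, cannot be told apart, and this holds for every difference below. The groups are therefore named as the libraries are labelled, and the part of the marker differences in the results was not tested. As the RNA is bulk RNA, fewer cells that express a gene and less of its RNA per cell cannot be told apart.

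A RefSeq promoter window of each of 4 of the genes is shown for what they hold of the CpG dinucleotide that these proteins act on. They are TET1, which had the largest fall of the 10 genes, MBD2, which had the largest rise, UHRF1, the only other gene that rose, and DNMT3B, which fell among neighbours that mostly rose. Each holds the 250 bases before the first base of a RefSeq transcript, located in GRCh37 by an exact match, and is written 5′ to 3′ along the strand of the gene with CpG in capitals.
TET1, chr10:70319844-70320093, plus strand: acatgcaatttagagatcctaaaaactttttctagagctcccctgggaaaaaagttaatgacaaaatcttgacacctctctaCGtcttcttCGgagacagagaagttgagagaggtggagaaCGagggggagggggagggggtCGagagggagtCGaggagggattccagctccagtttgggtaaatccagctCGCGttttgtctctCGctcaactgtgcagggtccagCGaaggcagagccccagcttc
MBD2, chr18:51751040-51751289, minus strand: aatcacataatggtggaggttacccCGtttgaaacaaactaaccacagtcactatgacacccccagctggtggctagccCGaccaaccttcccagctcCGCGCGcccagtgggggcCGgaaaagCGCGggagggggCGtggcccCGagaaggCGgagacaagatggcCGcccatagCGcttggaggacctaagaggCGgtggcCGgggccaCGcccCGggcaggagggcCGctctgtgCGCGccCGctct
UHRF1, chr19:4909906-4910155, plus strand: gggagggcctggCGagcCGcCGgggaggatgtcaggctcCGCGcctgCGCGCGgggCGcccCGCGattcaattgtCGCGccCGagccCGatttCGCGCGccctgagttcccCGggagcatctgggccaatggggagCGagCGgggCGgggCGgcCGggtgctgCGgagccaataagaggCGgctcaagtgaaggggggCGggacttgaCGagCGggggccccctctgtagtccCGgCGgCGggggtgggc
DNMT3B, chr20:31367408-31367657, plus strand: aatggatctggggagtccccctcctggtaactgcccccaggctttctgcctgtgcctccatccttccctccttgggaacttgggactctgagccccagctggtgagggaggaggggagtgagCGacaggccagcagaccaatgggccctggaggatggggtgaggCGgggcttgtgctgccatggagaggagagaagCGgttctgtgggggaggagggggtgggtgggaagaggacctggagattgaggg
All 4 windows lie outside annotated exons. The RefSeq starts behind the TET1 and MBD2 windows are 319 and 119 bases from the upstream end of the span deposited for the gene. Those behind the UHRF1 and DNMT3B windows lie 7064 and 17467 bases inside that span, so these windows are not at the outermost start of the gene as measured. The UHRF1 window holds 32 CpG, more than 90.5% of the 35116 windows of the RefSeq promoter table, whose median is 11 and whose quartiles are 3 and 23. The MBD2 window holds 21 CpG and the TET1 window 9. Further RefSeq windows of UHRF1, not printed, hold 28 and 41 CpG, and those of TET1 hold 4 and 11. The DNMT3B window holds 3, more than 22.9% of the windows, and the sequence at the outermost start of DNMT3B was not examined. The E2F-type motifs TTTCCCGC, TTTCGCGC, TTTGGCGC and TTTGCCGC, searched on both strands and counted once per position, occur in 2.79% of all windows. Among the windows of the 10 genes, 2 of UHRF1 hold 1 each, of which 1 is printed here, and the others hold 0. No methylation was measured in these libraries, so the windows are given as sequence only.

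Of the 10 genes, 7 were lower and 2 higher in the shSETD2 libraries than in the controls, and TDG did not pass the test. Differences were tested with limma on log2(FPKM + 1) over 14068 genes, with an adjusted p under 0.05 as the threshold. In that test 78.6% of all genes passed, 26.8% as higher and 51.8% as lower, so a difference by itself sets none of these genes apart. In 9 of the 10 genes the control and shSETD2 libraries did not overlap, 2 of them with shSETD2 above and 7 with shSETD2 below. Over all genes tested, 80.9% did not overlap, 27.9% with shSETD2 above and 53.0% with shSETD2 below. With 3 libraries against 3, an exact two-sided permutation test cannot give a p below 0.1, the value it gave for each of the 9. The median log2 fold change was -0.51 over the 10 genes and -0.29 over all genes tested. Scaling the libraries by the median ratio of their genes moved the median of all genes to -0.01. With that scaling 2 of the 10 genes were higher and 5 lower, against 37.7% higher and 38.3% lower of all genes, and TET2 and TET3 were no longer called.

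**Figure D1:**
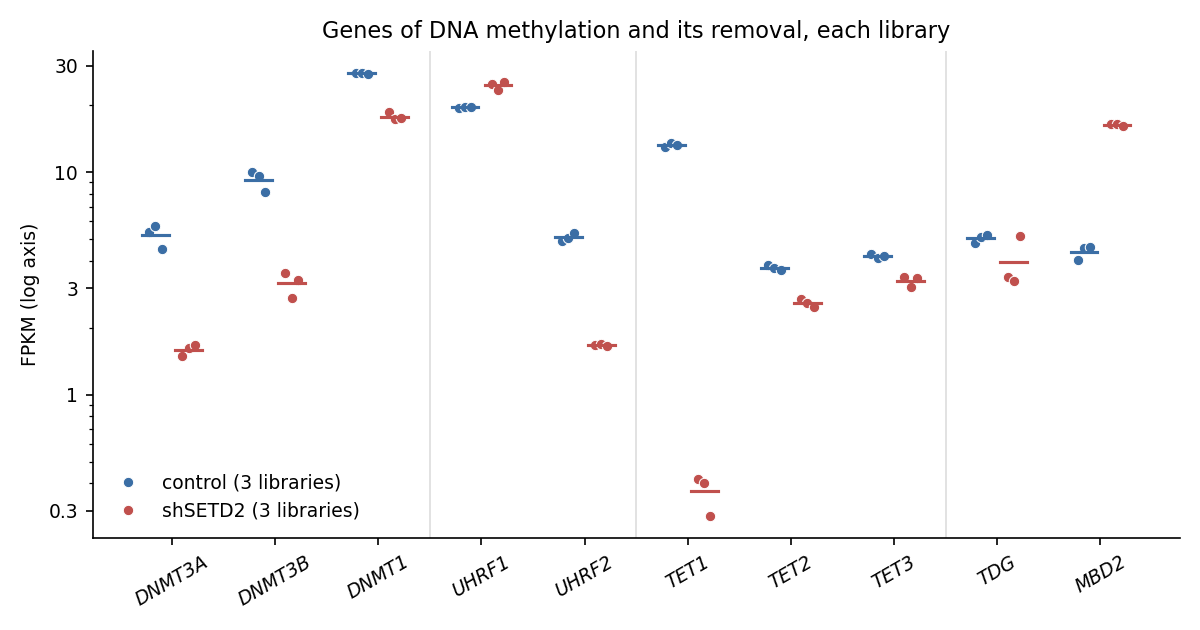
FPKM of the 10 genes in each library, on a log axis, with control libraries in blue, shSETD2 libraries in red and a bar at each group mean. TET1 drops from 13.2 to 0.368 FPKM and MBD2 climbs from 4.39 to 16.3, while the TDG points of the groups overlap.

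Both de novo methyltransferases fell. DNMT3A, which lies at chr2:25450724-25565459 on the minus strand, was measured at 5.37, 5.69 and 4.51 FPKM in the control libraries, against 1.48, 1.63 and 1.67 in those labelled shSETD2. Every shSETD2 library was far below every control. The mean went from 5.19 ± 0.612 to 1.59 ± 0.0973 FPKM (SD, n = 3), which is 3.26-fold lower (log2 fold change -1.25, SE 0.086, adjusted p = 1.84e-05, limma). DNMT3B, at chr20:31350191-31397162 on the plus strand, was measured at 9.998, 9.63 and 8.12 FPKM in the controls, against 3.51, 2.71 and 3.27 in those labelled shSETD2. Its mean dropped 2.92-fold, from 9.25 ± 0.997 to 3.17 ± 0.410 FPKM (SD, n = 3; log2 fold change -1.30, SE 0.10, adjusted p = 3.83e-05, limma). Whether one of the pair fell further was read from their ratio within a library. The ratio of DNMT3B to DNMT3A was 1.86, 1.69 and 1.80 in the controls and 2.37, 1.67 and 1.96 in the shSETD2 libraries, and these ranges overlapped (exact permutation test, two-sided, p = 0.5).

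The maintenance enzyme and its partner moved in opposite directions. DNMT1, at chr19:10244021-10341962 on the minus strand, was measured at 27.9, 27.7 and 27.6 FPKM in the control libraries, against 18.5, 17.3 and 17.5 in those labelled shSETD2. It fell 1.56-fold, from 27.8 ± 0.136 to 17.8 ± 0.675 FPKM (SD, n = 3; log2 fold change -0.62, SE 0.041, adjusted p = 1.59e-05, limma). The change was smaller, -0.28, with median ratio scaling and larger, -0.78, with quantile normalization. The coordinates deposited for DNMT1 reach 36333 bases past its RefSeq start and over S1PR2, a lipid receptor gene on the same strand with which it shares 83 exonic bases. S1PR2 went from 4.37 to 1.90 FPKM, and how far shared reads enter the DNMT1 value was not tested. UHRF1, at chr19:4903092-4962165 on the plus strand, was measured at 19.5, 19.5 and 19.6 FPKM in the controls, against 24.9, 23.5 and 25.3 in those labelled shSETD2. The controls lay within a narrow band and every shSETD2 library stood above it. The mean rose 1.26-fold, from 19.5 ± 0.0717 to 24.6 ± 0.947 FPKM (SD, n = 3; log2 fold change 0.31, SE 0.042, adjusted p = 4.75e-04, limma), and the change was 0.65 with median ratio scaling and 0.17 with quantile normalization. Within each library the ratio of UHRF1 to DNMT1 is free of any common scaling of its genes. It was 0.699, 0.704 and 0.711 in the controls and 1.35, 1.36 and 1.45 in the shSETD2 libraries, so UHRF1 was the lesser of the pair in every control library and the greater in every shSETD2 library.

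UHRF2, which shares the domain layout of UHRF1, changed the other way. At chr9:6413151-6507054 on the plus strand, it was measured at 4.88, 5.06 and 5.31 FPKM in the control libraries, against 1.68, 1.68 and 1.65 in those labelled shSETD2. The shSETD2 libraries were nearly equal and all far below the controls. The mean fell 3.04-fold, from 5.08 ± 0.219 to 1.67 ± 0.0159 FPKM (SD, n = 3; log2 fold change -1.19, SE 0.053, adjusted p = 2.48e-06, limma). UHRF2 made up 20.6% ± 0.645 of the summed FPKM of the pair in the controls and 6.38% ± 0.280 in the shSETD2 libraries (SD, n = 3), while the sum itself went from 24.6 to 26.2 FPKM.

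**Figure D2:**
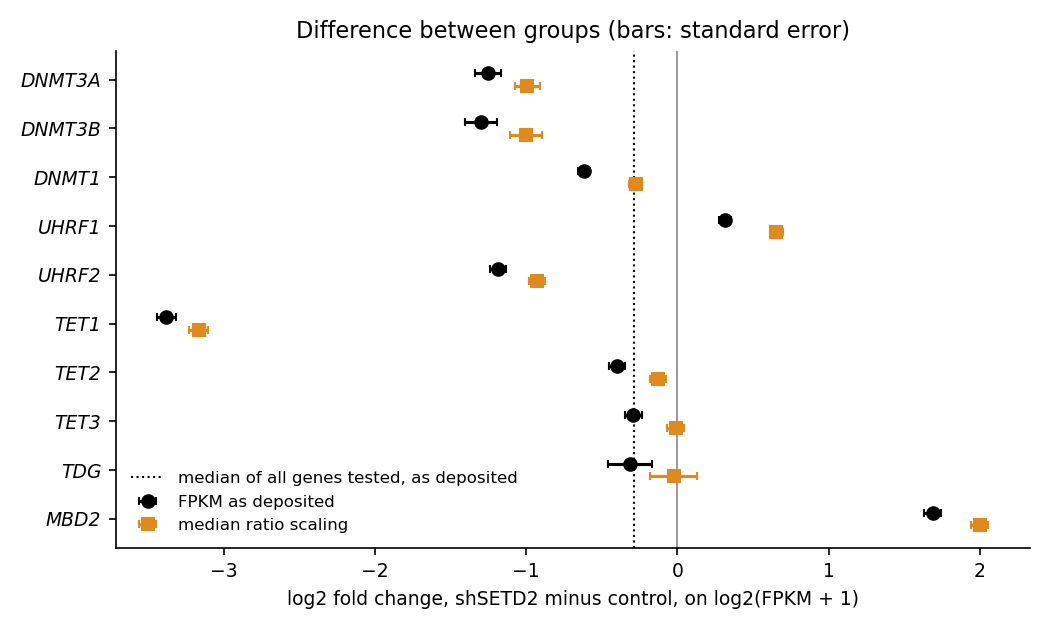
Log2 fold change of the 10 genes, shSETD2 minus control on log2(FPKM + 1), with standard errors, for the deposited FPKM (black) and after median ratio scaling (orange). The dotted line marks the median of all genes tested, -0.29, close to which TET2, TET3 and TDG lie, while TET1 is at -3.38 and MBD2 at 1.69.

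Among the oxidases, TET1 showed the largest difference of the 10 genes. TET1, at chr10:70320413-70454239 on the plus strand, was measured at 12.9, 13.5 and 13.2 FPKM in the control libraries, against 0.418, 0.399 and 0.286 in those labelled shSETD2. No library lay between these ranges. The mean was 36.0-fold lower, at 0.368 ± 0.0715 against 13.2 ± 0.304 FPKM (SD, n = 3; log2 fold change -3.38, SE 0.060, adjusted p = 6.12e-08, limma). Of all genes tested, 0.554% had a lower log2 fold change. TET1 went from the third of the 10 genes by level in the controls to the lowest in the shSETD2 libraries.

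The other oxidases differed far less. TET2, at chr4:106067032-106200973 on the plus strand, was measured at 3.84, 3.71 and 3.61 FPKM in the controls, against 2.69, 2.57 and 2.48 in those labelled shSETD2. The mean went from 3.72 ± 0.114 to 2.58 ± 0.104 FPKM (SD, n = 3; log2 fold change -0.40, SE 0.053, adjusted p = 4.70e-04, limma). That call was lost with median ratio scaling (-0.13, adjusted p = 0.0586, limma) and with quantile normalization (-0.11, adjusted p = 0.0871, limma). TET3, at chr2:74213531-74335303 on the plus strand, was measured at 4.28, 4.11 and 4.17 FPKM in the controls, against 3.36, 3.03 and 3.32 in those labelled shSETD2. Its groups did not overlap either, with means of 4.19 ± 0.0848 and 3.24 ± 0.182 FPKM (SD, n = 3; log2 fold change -0.29, SE 0.055, adjusted p = 0.00270, limma). The TET3 call was lost with the same scalings (-0.01, adjusted p = 0.851, and -0.04, adjusted p = 0.545, limma). Without scaling, the change of TET3 lay 0.0019 and that of TET2 0.11 below the median change of all genes (log2 scale).

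The make-up of the TET family was compared by shares within a library, which a common scaling of its genes does not move. TET1 held 61.4, 63.4 and 62.9% of the summed TET level in the control libraries and 6.46, 6.66 and 4.69% in the shSETD2 libraries. The share of TET2 went from 17.6% ± 0.561 to 41.7% ± 1.06 and that of TET3 from 19.8% ± 0.543 to 52.4% ± 2.06 (SD, n = 3), since shares add up to the whole. The ratio of TET1 to TET2 was 3.56 ± 0.166 in the controls and 0.142 ± 0.0233 in the shSETD2 libraries. TET3 relative to TET2 was 1.11, 1.11 and 1.16 in the controls and 1.25, 1.18 and 1.34 in the shSETD2 libraries, a small difference without overlap (exact permutation test, two-sided, p = 0.1, the smallest possible). The summed TET level was 21.1 ± 0.192 FPKM in the controls and 6.18 ± 0.249 in the shSETD2 libraries, and the summed DNMT level 42.2 ± 1.69 and 22.5 ± 0.959 FPKM (SD, n = 3). The ratio of the DNMT sum to the TET sum was 2.06, 2.02 and 1.92 in the control libraries and 3.64, 3.60 and 3.68 in the shSETD2 libraries. Within the DNMT sum, DNMT1 held 65.8% ± 2.42 in the controls and 78.9% ± 0.989 in the shSETD2 libraries (SD, n = 3).

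**Figure D3:**
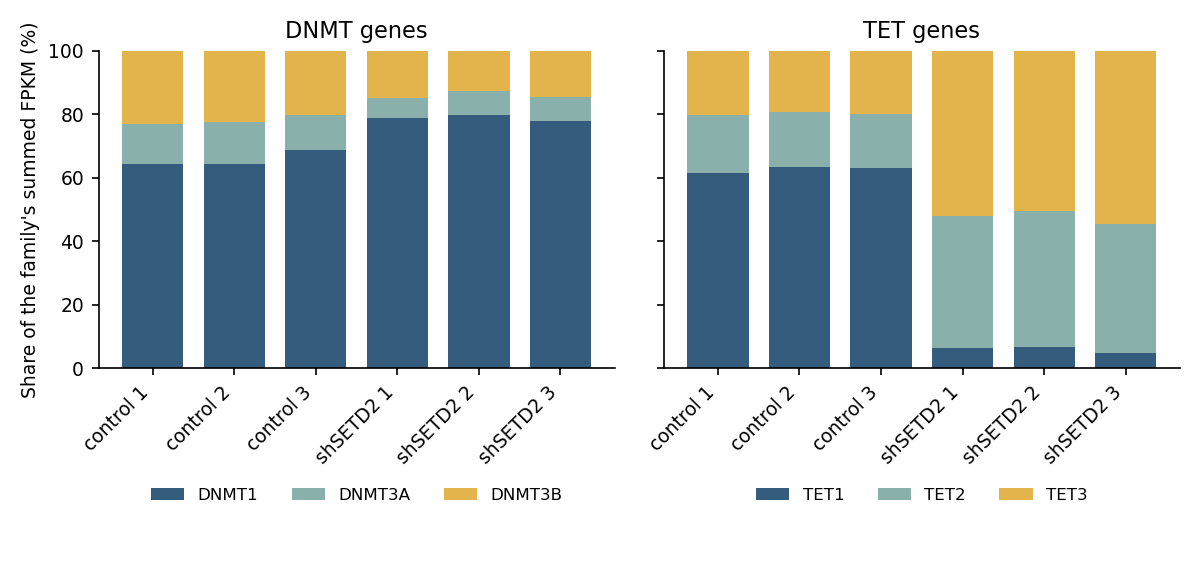
Share of each gene in the summed FPKM of the DNMT genes (left) and of the TET genes (right), in percent, 1 bar per library. TET1 falls from a mean share of 62.6% to 5.94%, and DNMT1 goes from 65.8% to 78.9%.

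TDG, at chr12:104359582-104382652 on the plus strand, was the 1 gene of the 10 that did not pass the test. It was measured at 4.77, 5.09 and 5.23 FPKM in the control libraries, against 3.37, 3.24 and 5.16 in those labelled shSETD2. Replicate 3 of shSETD2 lay among the controls and the other two below them. The means were 5.03 ± 0.233 and 3.92 ± 1.07 FPKM (SD, n = 3; log2 fold change -0.31, SE 0.15, adjusted p = 0.0925, limma). Without shSETD2 replicate 3 the log2 fold change was -0.49 and passed (adjusted p = 0.00119, limma), so this library decides the call.

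MBD2 rose the most of the 10 genes. At chr18:51677971-51751158 on the minus strand, it was measured at 4.02, 4.54 and 4.62 FPKM in the control libraries, against 16.4, 16.5 and 16.2 in those labelled shSETD2. All shSETD2 libraries stood well above all controls. The mean was 3.72-fold higher, 16.3 ± 0.155 against 4.39 ± 0.325 FPKM (SD, n = 3; log2 fold change 1.69, SE 0.057, adjusted p = 7.63e-07, limma), a log2 fold change above that of 94.3% of the genes tested.

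FPKM is a level per length, so the genes were ordered within a group, as a description. The lengths rest on an annotation that is not given, and how far reads shared with S1PR2 enter the DNMT1 value was not tested. In the controls the order from high to low was DNMT1, UHRF1, TET1, DNMT3B, DNMT3A, UHRF2, TDG, MBD2, TET3 and TET2. The ranges of DNMT3A, UHRF2 and TDG overlapped, as did those of MBD2 and TET3, and the other neighbours in the order were apart. In the shSETD2 libraries the order was UHRF1, DNMT1, MBD2, TDG, TET3, DNMT3B, TET2, UHRF2, DNMT3A and TET1. There the range of TDG overlapped that of TET3, that of TET3 overlapped that of DNMT3B, and that of UHRF2 overlapped that of DNMT3A. In both groups DNMT1 and UHRF1 held the top places, in reversed order.

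The proteins that work beside these genes were described by lists, with counts only and no test of a list. Of 7 listed partners of maintenance methylation, 6 were lower, 0 higher and 1 was not called (median log2 fold change -0.46), beside 26.8% higher and 51.8% lower of all genes tested. HELLS, a chromatin remodeller needed for methylation of packed DNA, fell from 33.3 ± 0.884 to 11.2 ± 3.36 FPKM (SD, n = 3; log2 fold change -1.53, adjusted p = 4.74e-04, limma). CDCA7, which recruits HELLS, was 15.6 ± 0.818 in the controls and 10.2 ± 3.28 FPKM in the shSETD2 libraries (SD, n = 3; adjusted p = 0.0290, limma), and this call was lost with median ratio scaling (adjusted p = 0.246, limma). Under that scaling the list had 2 members higher and 3 lower. Of all genes, 37.7% were then higher and 38.3% lower, which is the background for each count with median ratio scaling below.

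Of 7 genes for methyl-CpG readers and their relatives, MBD2 aside, 3 were higher and 4 lower (median -0.28). These are 42.9% and 57.1%, beside 26.8% and 51.8% of all genes tested. The zinc finger readers split. ZBTB38 went from 1.46 to 3.33 FPKM (log2 fold change 0.82, adjusted p = 3.68e-05, limma) and ZBTB4 from 7.85 to 13.3 (0.69, adjusted p = 5.25e-05, limma), whereas ZBTB33, also called Kaiso, went from 25.02 to 9.17 (-1.36, adjusted p = 1.62e-05, limma). MBD3, which takes the place of MBD2 in an alternative form of NuRD, fell from 13.3 ± 0.796 to 7.78 ± 0.581 FPKM (SD, n = 3; -0.70, adjusted p = 1.11e-04, limma), opposite to MBD2. Of 12 other NuRD subunits, 2 were higher, 7 lower and 3 not called (median -0.43), and 4 were higher and 6 lower with median ratio scaling. As shares, 16.7% were higher and 58.3% lower, near the 26.8% and 51.8% of all genes tested. Those that rose were CDK2AP1, a small subunit, from 4.78 to 13.1 FPKM (1.28, adjusted p = 5.26e-06, limma), and the remodelling ATPase CHD3, from 11.3 to 25.4 (1.10, adjusted p = 6.29e-06, limma). The lowest fold changes were those of the histone binder RBBP7, from 27.5 to 9.26 FPKM (-1.47), and of the scaffold MTA1, from 25.1 to 8.71 (-1.43).

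Of 10 genes of base excision repair, the route that follows TDG, 6 were lower, 0 higher and 4 not called (median -0.79, and 2 higher and 6 lower with median ratio scaling). The 60.0% that were lower stand beside 51.8% of all genes tested. PARP1, a sensor of strand breaks, fell from 112.3 ± 1.18 to 31.0 ± 0.371 FPKM (SD, n = 3; -1.82, adjusted p = 4.80e-08, limma). NEIL1, a glycosylase for oxidised bases, was measured at 1.59 FPKM in the controls and at 0.0529 in the shSETD2 libraries (-1.30, adjusted p = 2.27e-06, limma). Of 9 enzymes of the methyl donor cycle, 4 were higher, 3 lower and 2 not called (median 0.17, and 6 higher and 2 lower with median ratio scaling). Without that scaling, 44.4% were higher and 33.3% lower, beside 26.8% and 51.8% of all genes tested. Methionine synthase, MTR, fell from 36.6 to 11.9 FPKM (-1.55, adjusted p = 4.40e-07, limma), while MTRR, the reductase that keeps it active, rose from 5.09 to 8.22 (0.60, adjusted p = 4.49e-04, limma). MAT2B, a regulatory subunit for the synthesis of S-adenosylmethionine, rose from 7.06 to 10.6 (0.53), and the mitochondrial serine enzyme SHMT2 fell from 35.8 to 23.6 (-0.58).

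Of 14 TET partners and enzymes of 2-oxoglutarate, the TET cosubstrate, 13 passed the filter on low values, of which 4 were higher, 8 lower and 1 not called (median -0.55, and 5 higher and 7 lower with median ratio scaling). GADD45G did not pass that filter. Without scaling, 30.8% of the 13 were higher and 61.5% lower, beside 26.8% and 51.8% of all genes tested. The isocitrate dehydrogenases went both ways. Cytosolic IDH1, which forms 2-oxoglutarate, went from 9.73 ± 0.843 to 19.3 ± 0.849 FPKM (SD, n = 3; 0.92, adjusted p = 2.82e-05, limma) and its mitochondrial counterpart IDH2 from 22.8 ± 1.96 to 7.12 ± 0.0985 (SD, n = 3; -1.55, adjusted p = 2.14e-06, limma). The subunits of the mitochondrial IDH3 enzyme, named after their values were seen, did not share a direction either: IDH3A was lower (log2 fold change -0.95), IDH3B higher (0.32) and IDH3G lower (-0.15), the last with its sign turned by median ratio scaling (0.18). OGDH, which consumes 2-oxoglutarate, rose from 12.2 to 20.3 FPKM (0.70), and CXXC4, a CpG-binding partner of TET2, went from 1.65 to 0.0548 (-1.33, adjusted p = 1.05e-05, limma).

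Since DNMT1 and UHRF1 are expressed mostly in dividing cells, 14 genes of S phase and proliferation were set beside them. Of these, 3 were higher, 8 lower and 3 not called, with a median of -0.29, as over all genes tested. The share of the list called lower was 57.1% and the share called higher 21.4%, near the 51.8% and 26.8% of all genes tested. Median ratio scaling gave 4 higher and 3 lower, with a median of 0.05. MCM5 rose from 17.2 to 23.0 FPKM (0.40, adjusted p = 6.09e-04, limma), while MCM4 fell from 44.97 to 18.2 (-1.26) and MCM3 from 76.3 to 37.8 (-0.996), although all 3 are subunits of the replicative helicase. TYMS was called higher (33.4 and 37.7 FPKM, 0.17, adjusted p = 0.0229, limma), but its sign turned with quantile normalization (-0.090). Without control replicate 1, control replicate 3 or shSETD2 replicate 3, 1 gene of the list was higher in place of 3.

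**Figure D4:**
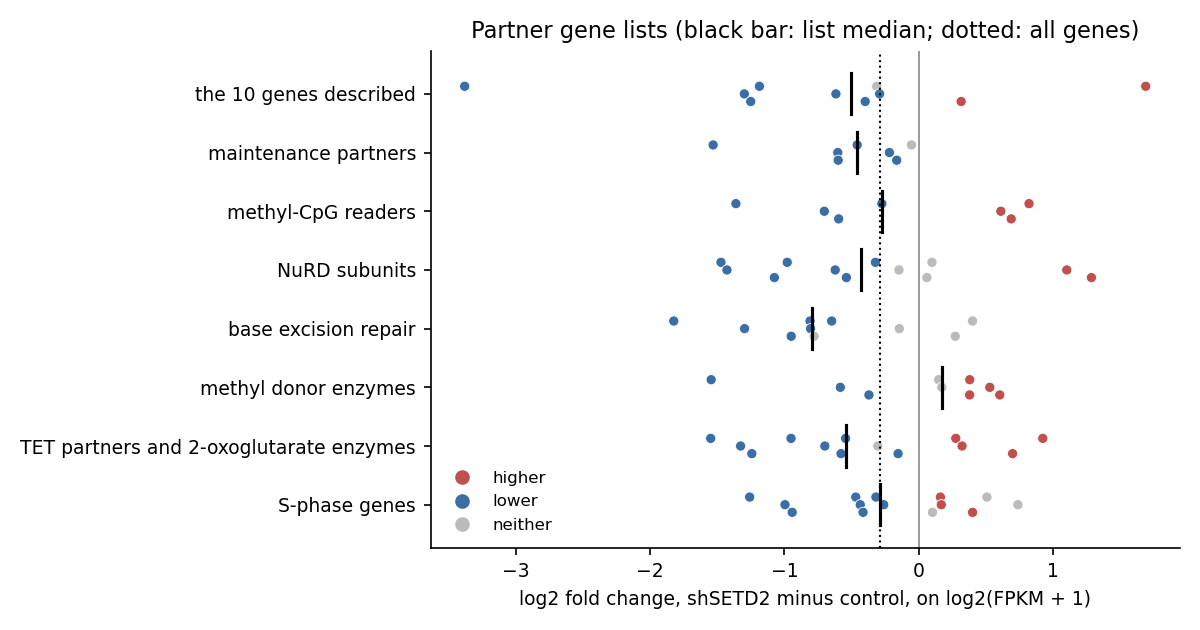
Log2 fold change of each tested gene of the 10 and of the partner lists, coloured by its call (red higher, blue lower, grey neither), with a black bar at each list's median. The dotted line is the median of all genes, -0.29, and the medians of the lists run from -0.79 for base excision repair to 0.17 for the methyl donor enzymes.

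Each gene was also set beside the 5 nearest tested genes on either side of it. Of all genes tested, 26.8% were higher and 51.8% lower, which is the background for the counts of neighbours. DNMT3B fell where its surroundings rose: 9 of its 10 neighbours were higher and 1 lower, with a median log2 fold change of 0.62 against -1.30 for DNMT3B and 0.40 for the 372 tested genes of chromosome 20. On log2(FPKM + 1), TET1 fell further than any of its neighbours, of which 8 were lower and 0 higher. Their median was -0.58 and their lowest value -2.28. That lowest value was of AL513534.1, which went from 4.44 to 0.117 FPKM, by ratio a fall as large as that of TET1. The log2(FPKM + 1) scale understates changes of such low genes. UHRF2 was close to its surroundings, where 8 neighbours were lower, 1 higher and the median -1.01. DNMT3A lay below the median of its neighbours (-0.53, 5 lower and 0 higher), and DNMT1 below that of its own (-0.25, 5 lower and 3 higher). UHRF1 rose where the median of its neighbours was -0.42, with 6 lower and 3 higher. MBD2 exceeded the median of its neighbours, 0.32, where 5 were higher and 1 lower. TET2, in contrast to TET1, fell less than the median of its neighbours (-0.85, 9 lower and 1 higher). TET3 and TDG were near theirs (-0.30 and -0.40).

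**Figure D5:**
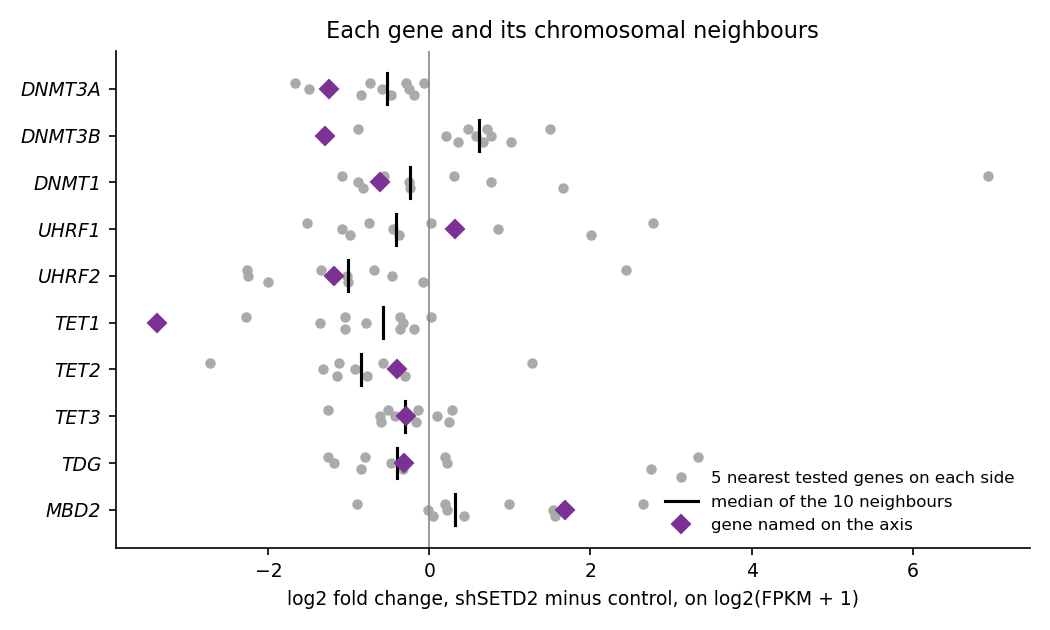
Log2 fold change of each of the 10 genes (purple diamond) and of the 5 nearest tested genes on each side (grey points), with a black bar at the median of the neighbours. DNMT3B lies at -1.30 against a median of 0.62, TET1 lies below all 10 of its neighbours, and ICAM1, near DNMT1, is the point at 6.94.

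The genes most like MBD2 over the 6 libraries, by Euclidean distance of log2(FPKM + 1), were SPRED2 (distance 0.167), UGDH (0.171) and MICA (0.222). Those most like TET1 were SLAIN1 (0.178), NR2F1 (0.283) and HOXA6 (0.303). SLAIN1, for example, was measured at 13.4, 13.6 and 13.2 FPKM in the controls, against 0.289, 0.322 and 0.337 in those labelled shSETD2. These genes were picked for their likeness, so their levels are a description.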

How the data were processed

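RNA-seq was performed on total RNA of 6 H1650 libraries, 3 control and 3 shSETD2, grouped by their titles. According to the methods of the study and the labels, the authors used Hisat2 to map reads on hg19, which is GRCh37, and Ballgown for gene levels. The versions, the annotation, the strand setting and the filter of listed genes are not given in the sources used here. The authors deposited FPKM per gene and library. The second table holds the authors' own comparison and was not used. FPKM sums ranged from 218769 to 224603 per library and the number of fragments is unknown, so precision is given by the spread over libraries only. Of the listed genes, 122 are at 0 in all libraries.

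The 10 genes and the lists were chosen with earlier results of these data known. Those 14068 of the 15897 genes, all 10 among them, whose FPKM averaged 0.5 or more were fitted on log2(FPKM + 1) by limma 3.58.1 in R 4.3.3 (lmFit, then eBayes with trend), using Benjamini-Hochberg adjustment over all genes tested and a threshold of 0.05. Fold changes on this scale understate changes of low genes. Folds in the text are ratios of mean FPKM. Ratios within a library were compared by exact permutation tests. From each list, up to 4 called genes were named, the 2 highest and the 2 lowest by log2 fold change. For the genes with the largest rise and fall, the 3 nearest genes were named. Other pseudocounts, filters, scalings and models, a replicate block and leaving out each library were tried. The fit was tested on simulated data with 200 changed genes. Above 5 FPKM, it called 96.2% of genes changed by 1 on the log2 scale and 98.2% of those changed by 2. It also called 9 of 13868 unchanged genes. Since most genes differ in the real libraries, this setting cannot show how the fit behaves there. Positions are from the deposited table, exons from GENCODE v44lift37 and promoter windows from RefSeq (GRCh38.p14), matched by sequence to GRCh37. Processed pseudogenes of DNMT3A, TDG, TET1 and UHRF2 are annotated, and reads shared with them, or with the overlapping transcripts of TET3 and TDG, cannot be told apart. Python 3.11.15, pandas 2.3.3, numpy 2.4.6, scipy 1.17.1 and matplotlib 3.10.9 were used for tables and figures.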

Additional observations from a re-analysis of the deposited data

How the results depend on the processing

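Of the values recomputed under the alternatives, 497 kept their direction and their side of the threshold or moved little. A further 15 moved more, 4 became weaker and 1 stronger. Modest shifts of a count are among the 497, such as 5 in place of 7 of the 10 genes lower. With a mean FPKM of at least 5 required, 2401 genes were higher and 3246 lower, against 3774 and 7283, and 3 of the 10 genes were lower, since fewer genes were tested. TET2 and TET3 lost their calls with quantile normalization (-0.11, adjusted p = 0.0871, and -0.037, adjusted p = 0.545, limma) and with median ratio scaling (-0.13, adjusted p = 0.0586, and -0.013, adjusted p = 0.851, limma), which left 5 of the 10 genes lower. These scalings move the median of all genes from -0.29 to -0.11 and -0.01. Leaving out 1 library at a time, TDG ranged from -0.49 to -0.22 (adjusted p 0.00119 to 0.250, limma) and passed only without shSETD2 replicate 3. The other 9 genes kept their calls in these fits, with TET1 between -3.41 and -3.34 and MBD2 between 1.64 and 1.72. The change of the ratio of TET1 to TET2, shSETD2 over control, was 0.0399, and 0.0499 with 0.1 added to each FPKM. Over all genes tested, same-numbered libraries did not deviate together (correlations of -0.024, 0.018 and -0.0077). Of the 3 controls, 0 correlated best with their own number. Single genes could still follow the number: UNG read 16.1, 34.5 and 13.9 FPKM in the controls and 8.19, 19.2 and 8.60 in the shSETD2 libraries. RRM2 was also highest in replicate 2 of both groups, and SETD2 was lowest in replicate 2 of both. In each same-numbered pair SETD2 was lower in the shSETD2 library. Whether same-numbered libraries share a preparation was not tested. With the replicate block, 3733 genes were higher and 7243 lower, and again 2 and 7 of the 10 genes. The TET1 level in the shSETD2 libraries, under 0.5 FPKM, rests on an unknown number of fragments, so its fold is less firm than its direction.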

Other observations

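Of 19 germline genes, a class known to be held silent by promoter methylation in body cells, 5 were listed and 0 reached the mean FPKM of 0.5 required for the test. MAGEB2 was measured at 1.01, 0.726 and 0.802 FPKM in the control libraries and was listed at 0 in all shSETD2 libraries. MAGEA3 was measured at 0.363, 0.427 and 0.479 FPKM in the controls and at 0.153, 0.143 and 0.253 in the shSETD2 libraries. MAGEA1 and MAGEA6 were also lower in every shSETD2 library than in every control, with means of 0.161 and 0.413 FPKM in the controls. In 4 of the 5 listed genes every shSETD2 library thus lay below every control, against 53.0% of all genes tested. That 53.0% covers only genes that passed the filter, which these 5 did not, so whether they stand apart was not tested. PAGE1 went the other way in 1 library: it was listed at 0 in all controls and in shSETD2 replicates 1 and 2, and read 0.106 FPKM in shSETD2 replicate 3. The MAGEA genes are close copies of each other, so how reads were split between them is uncertain.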
